A study of Mus musculus with 2 samples.

Results

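The genes of the DNA replication machinery were compared between the inner cell mass (ICM) and the whole blastocyst of the mouse. Members were taken by gene symbol from the deposited expression table, as subunits of the origin recognition complex (Orc), the MCM, GINS, RFC and RPA families, DNA polymerases alpha, delta and epsilon, primase, and Cdc6, Cdc7, Cdc45, Cdt1, Gmnn, Pcna, Lig1 and Fen1. This gave 46 genes of the 19559 listed, each with at least 1 read. For 7 of them, such as Orc1l (now Orc1) and Cdc45l (now Cdc45), the table uses an older symbol, which is kept here. Gins1 was not analysed here.

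RNA came from mouse embryos at E3.75 (embryonic age in days), bred from B6CBAF1 mothers and CD-1 fathers. One library was made from whole blastocysts and 1 from ICMs freed of their outer layer by immunosurgery, in which antibody and complement lyse the outer cells. Sources used here do not give how many embryos were pooled. Neither group has a replicate and the conditions were not tested, so every interval below is a 95% counting interval of these libraries. Reads from amplified cDNA without molecular identifiers are not independent molecules, so the intervals cover counting error only.

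Replication starts at origins. The origin recognition complex binds them and, with CDC6 and CDT1, loads the MCM2-7 ring onto DNA in G1, while geminin blocks CDT1 once S phase has begun. The kinase CDC7 with its partner DBF4, CDC45 and the GINS complex then turn the ring into an active helicase. Polymerase alpha with primase makes primers, polymerases epsilon and delta extend them on the leading and lagging strands, RFC loads the sliding clamp PCNA, RPA covers single strands, and FEN1 and LIG1 process and join Okazaki fragments. The trophectoderm, the outer epithelium of the blastocyst, later gives rise to giant cells that replicate their DNA without dividing, whereas the cells of the ICM go on to divide rapidly.

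Reads on listed genes numbered 9271198 for the whole blastocyst and 4125479 for the ICM. Trophectoderm and epiblast markers went the way of the labels, and primitive endoderm markers were mixed. Differences are log2((ICM RPKM + 1)/(whole-blastocyst RPKM + 1)), a scale that understates the change of low genes. In the ICM library 8 of 9 trophectoderm markers were at least 2-fold lower, and their summed RPKM was 162 against 1844, with Elf5 at 0 reads. The largest differences were those of Krt18 (-5.54), Krt8 (-3.69), Cdx2 (-3.29) and Eomes (-3.21). Of 8 epiblast markers 7 were at least 2-fold higher, with a summed RPKM of 272 against 43.5, led by Utf1 (3.44), Tdgf1 (2.93), Esrrb (2.54) and Pou5f1 (1.73), and Nanog had 1.19. Of 5 measured primitive endoderm markers 3 were higher, Pdgfra (4.39), Gata4 (2.51) and Sox17 (1.52), and 1 lower, Dab2 (-4.00), while Gata6 had -0.44. The summed RPKM of all 7 in that list was 101 against 93.3, with no ICM read for Foxa2 and no whole-blastocyst read for Foxa2 or Sox7. The part that the loss of trophectoderm RNA had in the differences of replication genes was not tested. In such bulk samples, fewer cells of a type and less RNA per cell cannot be told apart.

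Most replication genes lay within 2-fold between the ICM and the whole blastocyst. Among all genes, most had a lower deposited RPKM in the ICM, and the size of this shift depended on the scaling between the libraries. Differences were read over genes that reached an RPKM of 1 in either library. Of the 46 replication genes 45 passed this filter, and Mcm9 did not (RPKM of 0.631 and 0.439). At least 2-fold lower in the ICM were 8 of the 45 (17.8%), where 44% of all 8981 genes were. At least 2-fold higher was 1, where 8.96% of all genes were. The other 36 lay within 2-fold. The median difference was -0.37, compared with -0.84 over all genes. The summed RPKM of the 46 genes was 826 for the whole blastocyst and 775 for the ICM (ratio 0.938).

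The general shift between the libraries decides how these values read. The median difference was -0.66 over the 3013 genes that reached an RPKM of 5 in both. Relative to that shift (centred values), 1 replication gene, Pola2, was at least 2-fold lower (2.22%), where 20.5% of all genes were. At least 2-fold higher were 7 (15.6%), where 16.9% of all genes were. These were Fen1, Gins2, Lig1, Mcm6, Mcm7, Pole and Pold1, the last on 8 and 13 reads with a ratio interval that held 1. Above the shift lay 30 of the 45 replication genes and 3893 of all 8981 genes. The centred median was 0.29, against -0.18 over all genes. Reads on listed genes made up 20.6% of the whole-blastocyst total that RPKM was scaled to and 10.9% of the ICM total. Of the 46 counting intervals of the RPKM ratio, 28 lay wholly below 1, 8 wholly above 1, and 10 held 1. This count of intervals was not made over all genes, so it does not set replication genes apart from them. In deposited RPKM, differences above 0 were those of 12 of 45 replication genes and of 2105 of all 8981 genes.

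RPKM divides a gene's read count by a length in kilobases and by a total for the library. The lengths that the table used could be recovered, because the read count divided by RPKM is a whole multiple of 1 value per library. For 52.2% of the replication genes they were those of a last exon, and for few genes those of a whole transcript. Of 46 replication genes, 24 had a length within 2 bases of an annotated last exon, none of an annotated first exon, and 1 of a whole transcript. Over 13643 genes with a read, 56.8% lay within 2 bases of a last exon, 0.88% of a first exon and 3.18% of a whole transcript. Of the genes at a last exon, 940 lay at a last exon that was not the longest exon, and 25 genes lay at the longest exon but at no last one. The replication genes' lengths ran from 103 bases (Pole2) to 4237 (Orc3l), with a median of 600.5. A level given here therefore depends on the length used for that gene. Whether the reads were counted over that stretch alone could not be read from the table. The ratio of a gene between the libraries does not depend on the length.

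**Figure D1:**
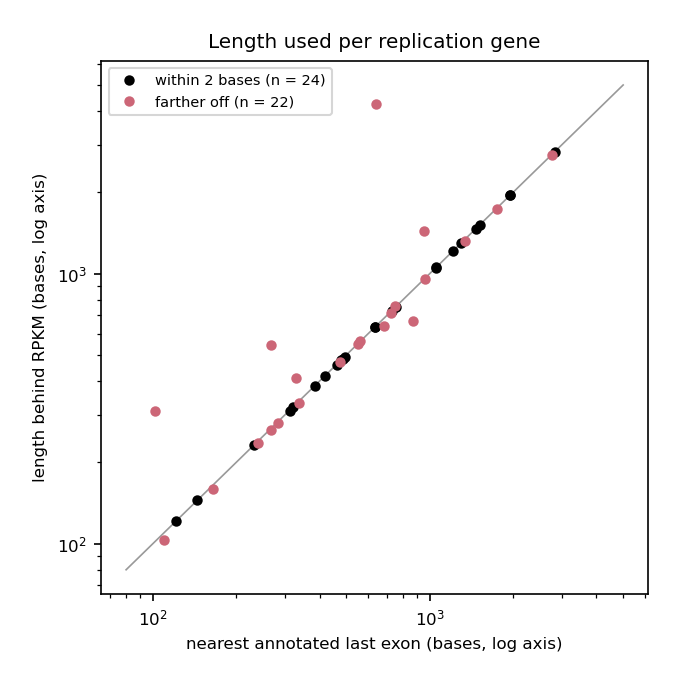
Length behind RPKM against the nearest annotated last exon of the same gene, in bases on log axes, for the 46 replication genes. The 24 black points lie within 2 bases of the diagonal, which marks equal lengths, and red points are farther off. A gene can have several annotated last exons, and the nearest one is drawn.

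**Figure D2:**
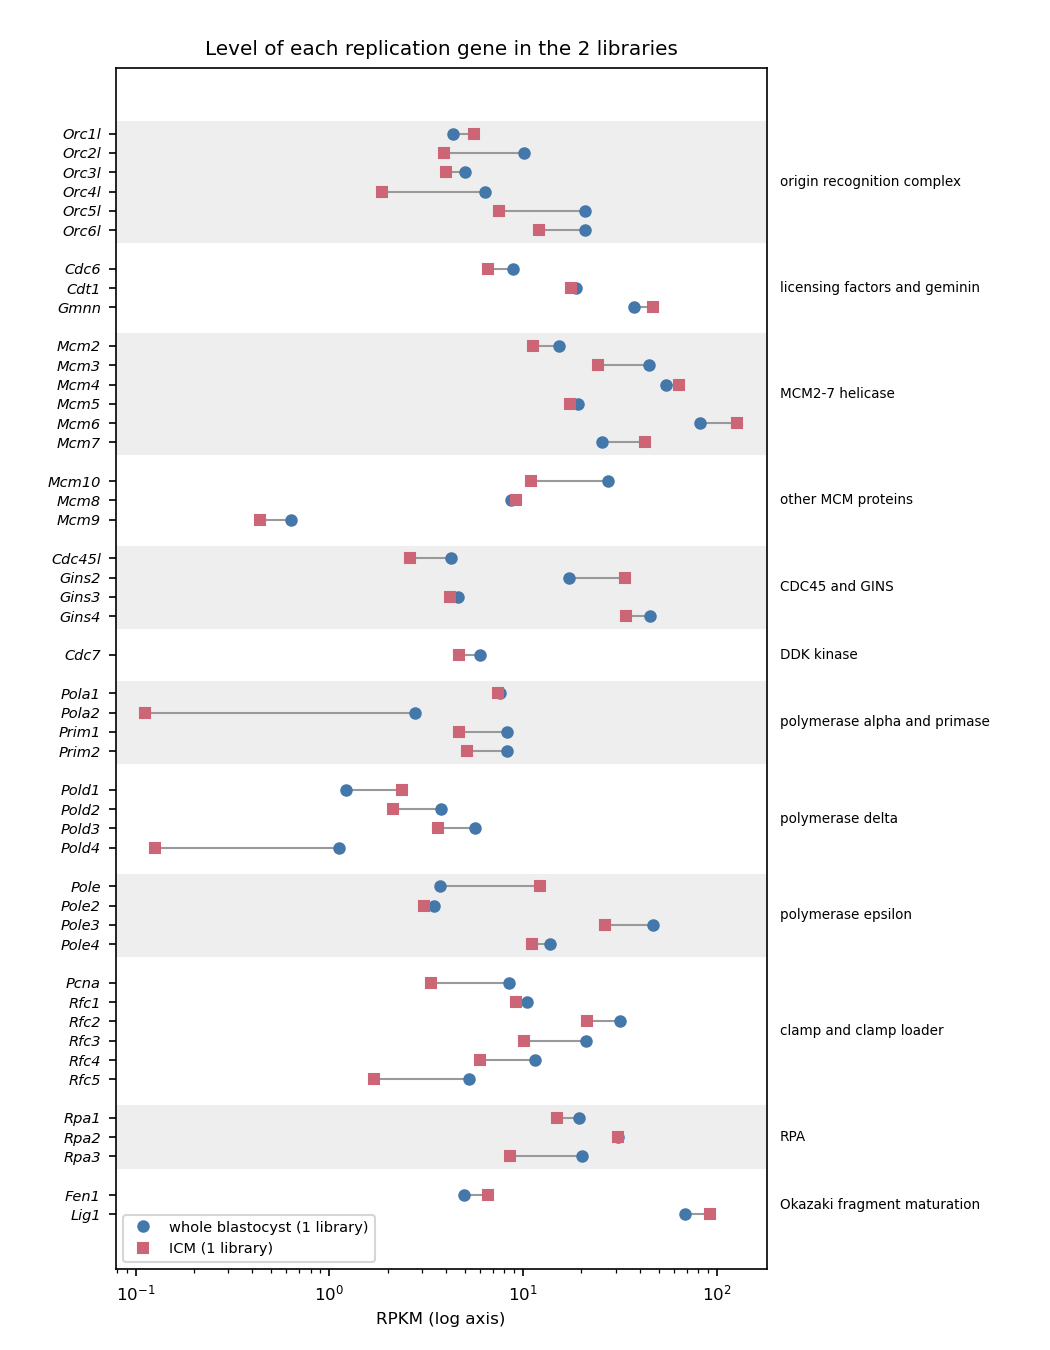
RPKM of the 46 replication genes in the whole-blastocyst library (blue circles) and the ICM library (red squares), on a log axis, ordered by complex. Mcm6 leads both libraries, followed by Lig1 and Mcm4, and the ICM values of Pola2 and Pold4 lie far to the left on 2 reads each.

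The order of the genes was much alike in both libraries. Mcm6 had the highest RPKM in each (81.5 and 127), followed by Lig1 (68.5 and 92.2) and Mcm4 (54.8 and 63.6). Spearman's rho between the libraries over the 46 genes was 0.87. This describes genes, which are not replicates, and both columns share each gene's length.

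Of the 6 genes of the origin recognition complex 3 were at least 2-fold lower (50%, near the 44% of all genes), and by centred differences none was. By the RPKM ratio divided by the shift, Orc4l was past 2-fold lower (0.465) and Orc1l past 2-fold higher (2.03). The share of all genes past 2-fold by this measure was not counted. Orc4l stood at an RPKM of 6.36 (whole blastocyst) and 1.87 (ICM), which is 3.40-fold lower (2.90 to 3.99). Orc5l went from 20.8 to 7.53, 2.77-fold lower (2.37 to 3.25), and Orc2l from 10.05 to 3.89, 2.58-fold lower (2.22 to 3.02). Orc6l was 1.72-fold lower (1.46 to 2.03) and Orc3l 1.25-fold lower (1.13 to 1.39). Orc1l, the subunit whose protein level changes over the cell cycle in mammalian cells, stood on the other side with 108 and 117 reads, an RPKM of 4.36 and 5.61 and a ratio of 1.29 (0.981 to 1.69). The median of the 6 was -0.96, against -0.84 over all genes.

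Loading factors differed less. Cdt1 had an RPKM of 18.8 and 17.7, a ratio of 0.946 (0.831 to 1.08). Cdc6 went from 8.84 to 6.60, a ratio of 0.747 (0.679 to 0.821). Gmnn, which encodes geminin, the inhibitor of CDT1, was higher in the ICM at 46.9 against 37.3, a ratio of 1.26 (1.13 to 1.40). None of the 3 was past 2-fold, and all 3 lay above the general shift, as did 3893 of all 8981 genes.

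The helicase genes split within the ring. MCM2 to MCM7 form a ring with 1 copy of each protein, yet their transcripts did not move as a unit. Mcm7 went from 25.6 to 42.8, a ratio of 1.67 (1.46 to 1.91), and Mcm6 from 81.5 to 127, a ratio of 1.56 (1.46 to 1.66). Mcm4 had a ratio of 1.16 (1.08 to 1.24) and Mcm5 of 0.905 (0.825 to 0.993). Mcm2 went from 15.4 to 11.3 (0.734, 0.628 to 0.855) and Mcm3 from 44.8 to 24.5 (0.547, 0.495 to 0.603). The level of Mcm7 relative to Mcm3 was thus 0.571 for the whole blastocyst and 1.75 for the ICM, a change of 3.06-fold (2.59 to 3.62) that a common factor per library leaves as it is. The highest of the 6 exceeded the lowest 5.30-fold in the whole blastocyst and 11.2-fold in the ICM. Their sum was 241 and 286, a ratio of 1.19.

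Among the other MCM genes, Mcm10, a factor that helps activate the helicase, was lower. It went from 27.5 to 10.9, 2.52-fold (2.21 to 2.87). Mcm8, which works with MCM9 in recombination, had 8.66 and 9.14, a ratio of 1.05 (0.885 to 1.26).

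Of the helicase's partners, Gins2 stood apart. It went from 17.2 to 33.5, a ratio of 1.95 (1.72 to 2.21), whereas Gins4 went from 45.3 to 33.9 (0.750, 0.682 to 0.823) and Gins3 from 4.62 to 4.22 (0.912, 0.784 to 1.06). Gins2 relative to Gins4 changed 2.60-fold (2.23 to 3.04) in favour of Gins2. Cdc45l rested on 23 and 12 reads, a ratio of 0.619 (0.281 to 1.30). Cdc7 had 6.01 and 4.67 (0.777, 0.662 to 0.911), and its activating partner Dbf4, which is no member of the set, 23.9 and 33.2 (1.39, 1.29 to 1.499).

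**Figure D3:**
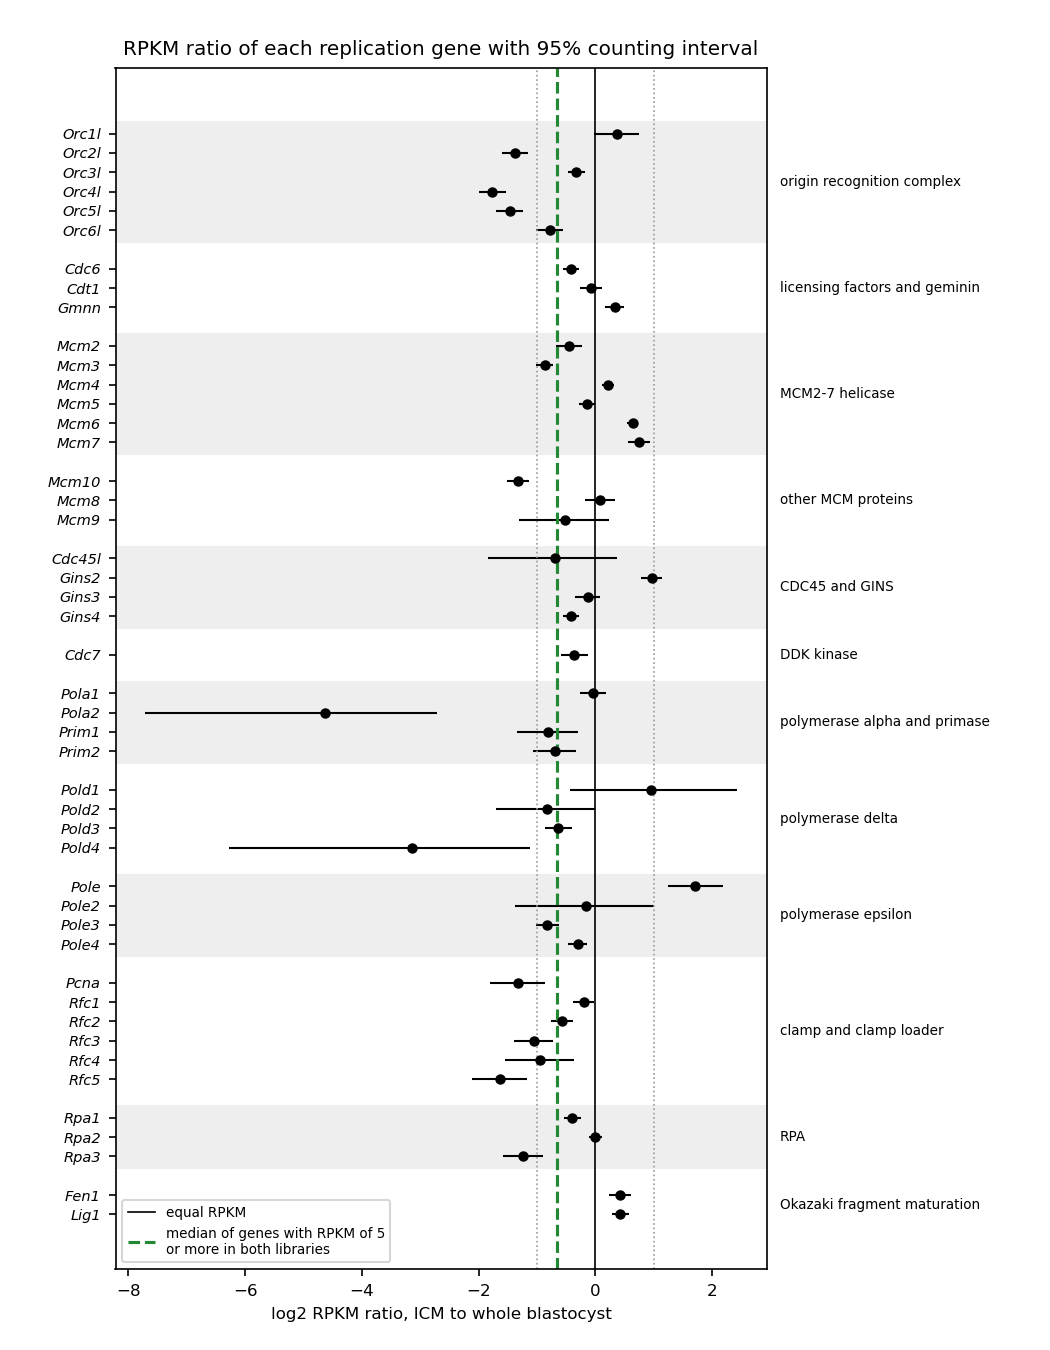
Log2 of the RPKM ratio, ICM to whole blastocyst, for the 46 replication genes, without a pseudocount. Bars are 95% counting intervals, dotted lines mark 2-fold, and the dashed line is the general shift of -0.66. Pole is the only gene past 2-fold on the right, and Pola2 and Pold4 have the widest intervals among those on the left.

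The polymerases held the most distant values in both directions. Pole, the catalytic subunit of polymerase epsilon, was the 1 gene at least 2-fold higher in the ICM as deposited. It had 54 and 148 reads, an RPKM of 3.74 and 12.2 and a ratio of 3.25 (2.37 to 4.53). Its small subunits did not share this. Pole3, a histone-fold subunit, went from 46.7 to 26.5 (0.566, 0.493 to 0.649), Pole4 from 13.8 to 11.2 (0.810, 0.726 to 0.903), and Pole2 rested on 16 and 12 reads. Pole relative to Pole3 changed 5.75-fold (4.05 to 8.23).

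In polymerase alpha and primase, Pola2, the regulatory B subunit, had 59 whole-blastocyst reads and 2 ICM reads, a ratio of 0.0402 (0.0048 to 0.152). By the difference, which adds 1 to each RPKM, Pola2 was the 1 replication gene at least 2-fold lower relative to the general shift. By the RPKM ratio divided by that shift, Pola2 (0.063), Pold4 (0.178) and Orc4l (0.465) were all past 2-fold lower. The catalytic subunit gene Pola1 had 7.62 and 7.42 (0.973, 0.831 to 1.14). The primase genes were close to each other, Prim1 at 0.569 (0.393 to 0.814) and Prim2 at 0.619 (0.479 to 0.797). Polymerase delta genes were low in both libraries. The catalytic Pold1 had 8 and 13 reads, so its ratio of 1.93 (0.741 to 5.37) was not resolved at this depth, and Pold2 had 40 and 19. Pold3 went from 5.65 to 3.64 (0.643, 0.547 to 0.754). Pold4, the small accessory subunit, had 21 and 2 reads (0.113, 0.0129 to 0.462), a difference of -0.91.

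Pcna and all 5 Rfc genes had a lower deposited RPKM in the ICM, and after centring Rfc1 and Rfc2 were higher and the other 4 lower. Of all 8981 genes, 2105 had a difference above 0 as deposited and 3893 after centring. At least 2-fold lower as deposited were 2 of the 6 (33.3%), where 44% of all genes were. Pcna had 155 and 52 reads, an RPKM of 8.42 and 3.35, and was 2.51-fold lower (1.82 to 3.51). Rfc5 went from 5.25 to 1.70, 3.09-fold lower (2.25 to 4.34), and Rfc3 from 21.02 to 10.1, 2.08-fold lower (1.65 to 2.63), with a difference of -0.99 just short of the limit. Rfc4 was 1.92-fold (1.28 to 2.92) and Rfc2 1.49-fold lower (1.31 to 1.69). Rfc1, the large subunit, was nearest to equal at 10.5 and 9.15 (0.871, 0.769 to 0.985).

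RPA showed a graded pattern over its 3 subunits. Rpa2 had 30.8 in both libraries (ratio 1.001, 0.923 to 1.08), Rpa1 went from 19.5 to 14.9 (0.761, 0.685 to 0.844), and Rpa3 from 20.2 to 8.59, 2.35-fold lower (1.87 to 2.98). Rpa2 relative to Rpa3 changed 2.35-fold (1.84 to 3.03). The genes of Okazaki fragment maturation were both higher in the ICM by the same measure. Fen1, the flap endonuclease, went from 4.95 to 6.63 (1.34, 1.18 to 1.53) and Lig1, DNA ligase I, from 68.5 to 92.2 (1.35, 1.22 to 1.49). Lig1 relative to Fen1 changed by a factor of 1.006 (0.851 to 1.19), so no change in their proportion was detectable at this depth.

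Several of these genes share sequence with others. The annotated last exons of 11 members overlap exons of another gene in GRCm38, and no source used here says whether counting used strand. Of the 8 lower genes these were Orc4l, whose opposite-strand neighbour Acvr2a had a difference of -1.64, Rfc5, whose neighbour Wsb2 had -1.32, and Orc2l, whose neighbour Nif3l1 had 0.21. For Mcm7 and Gins2, which had high ratios, the opposite-strand neighbours Cops6 and Gse1 had -0.81 and 0.35. Without the 11 genes, 5 of 35 members were at least 2-fold lower, where 44.0% of all genes were. Overlaps were looked up for members only, so this 44.0% still includes other genes with overlapping exons. Nor is it stated how multi-mapping reads were handled. Pcna has pseudogenes listed in RefSeq, so its value is uncertain.

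Of 22 measured mitosis genes 17 were past 2-fold lower and none past 2-fold higher, with a median of -1.55, and after centring these counts were 10 and none. The lower share was 77.3%, where 44% of all genes were lower. After centring it was 45.5%, where 20.5% of all genes were lower. The other 5 included Nuf2 (0.21), Ccnb2 (-0.26) and Cenpf (-0.41). Cenpe, a kinetochore motor, went from 23.7 to 1.42, 16.6-fold lower (10.7 to 27.2). Plk1, a mitotic kinase, was 16.1-fold lower (8.81 to 32.7) on 11 ICM reads, Spc25, a kinetochore subunit, 7.27-fold (5.99 to 8.89), and Birc5, which encodes survivin, 4.94-fold (4.61 to 5.29). No test of the difference between the lists was made, since genes are not replicates.

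Accessory and checkpoint genes of the replisome had a median of -0.49, with 6 of 24 past 2-fold lower and 1 past 2-fold higher (5 and 5 after centring). The lower share was 25% as deposited, below the 44% of all genes. After centring it was 20.8%, near the 20.5% of all genes, and the higher share was 20.8%, where 16.9% of all genes were higher. The checkpoint kinase gene Atr had 90 and 3 reads, a ratio of 0.0396 (0.0080 to 0.119). Topbp1, an activator of ATR, was 4.08-fold lower (3.56 to 4.70), the fork protection gene Tipin 4.30-fold (3.40 to 5.49) and the topoisomerase gene Top2a 3.67-fold (3.03 to 4.49). The higher gene, Recql4, rested on 7 and 18 reads. Chek1, the checkpoint kinase downstream of ATR, had 18.8 and 11.97, 1.57-fold lower (1.45 to 1.71).

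**Figure D4:**
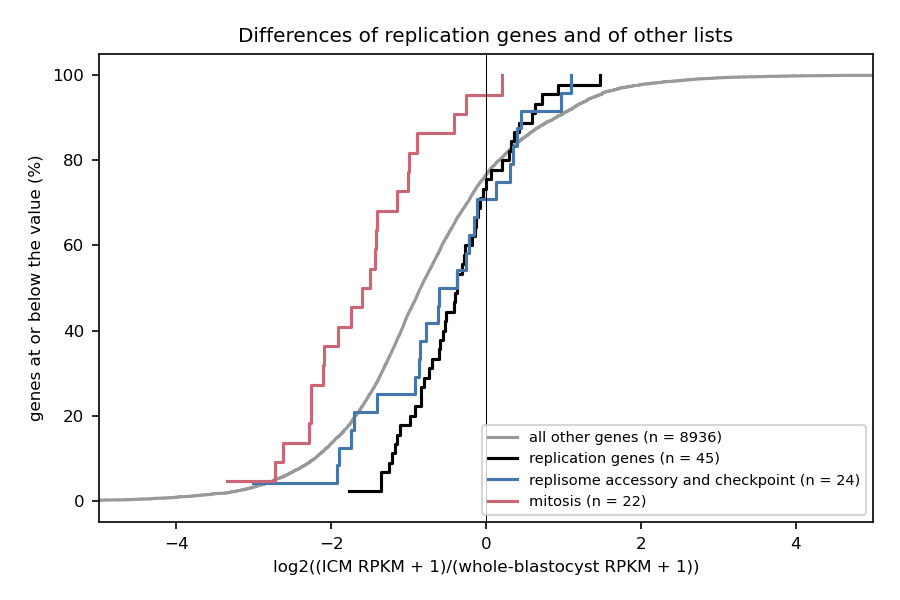
Cumulative share of genes at or below each log2 difference, for replication genes (black, 45 genes), replisome accessory and checkpoint genes (blue, 24), mitosis genes (red, 22) and all other genes (grey, 8936). The black curve lies to the right of the grey one over most of its lower range, with medians of -0.37 for replication genes and -1.55 for mitosis genes.

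Past 2-fold lower were 4 of 13 measured nucleotide supply genes, with none higher (1 and 1 after centring), with a median of -0.44. Rrm1, the large subunit of ribonucleotide reductase, was 3.55-fold lower (3.15 to 4.01), the nucleoside and nucleotide kinase genes Dck 2.88-fold (2.58 to 3.23), Dtymk 2.25-fold (1.91 to 2.66) and Cmpk1 2.22-fold (2.02 to 2.44). Of 8 histone chaperone genes of the fork 1 was lower, Asf1b at 3.68-fold (2.41 to 5.82), and none higher (none and 1 after centring). The lower shares of these lists were 30.8% and 12.5%, below the 44% of all genes. After centring they were 7.69% and 0%, where 20.5% of all genes were lower. The other chaperone genes farthest from equal were Rbbp4 (-0.98), Chaf1b (-0.93 on 15 and 3 reads) and Nasp (-0.88). Of 18 measured G1/S regulators 7 were lower and none higher (4 and 1 after centring), with a median of -0.90. The lower share of 38.9% was near the 44% of all genes. After centring it was 22.2%, where 20.5% of all genes were lower. E2f8, a repressor of the E2F family, had 269 and 2 reads, the CDK inhibitor gene Cdkn1a was 5.20-fold lower (4.53 to 6.01), Cdk2 5.96-fold (4.82 to 7.42) and the phosphatase gene Cdc25a 3.97-fold (3.40 to 4.65). Of 9 measured translesion, repair and mitochondrial polymerases 4 were lower and 1 higher (3 and 2 after centring), with a median of -0.78. The lower share of 44.4% was near that of all genes. After centring it was 33.3%, where 20.5% of all genes were lower. Polb, the repair polymerase beta, had 66 whole-blastocyst reads and no ICM read, Polk 276 and 11, Rev1 86 and 10, and the mitochondrial Polg was 2.52-fold lower (2.08 to 3.06).

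Many replication genes are known targets of E2F transcription factors, and their promoters were searched for E2F sites. The letters searched were TTTGGCGC, TTTCCCGC, TTTGCCGC and TTTCGCGC on both strands, in the 250 bases before the start of each gene in RefSeq (GRCm38.p6, not the mm9 build of the expression table). Some of these sites overlap each other when read on opposite strands. Of the 46 genes 39 had a window, and 10 of these held a site (25.6%), compared with 2.16% of 27025 genes. The windows of Mcm5, Mcm6 and Pola1 are shown because each holds a site and overlaps no annotated exon. The first lies on the plus strand at chr8:75109259-75109508, the second on the minus strand at chr1:128359706-128359955 and the third on the minus strand at chrX:93632156-93632405. They are written 5' to 3' along the gene, and capitals mark the sites.
Mcm5: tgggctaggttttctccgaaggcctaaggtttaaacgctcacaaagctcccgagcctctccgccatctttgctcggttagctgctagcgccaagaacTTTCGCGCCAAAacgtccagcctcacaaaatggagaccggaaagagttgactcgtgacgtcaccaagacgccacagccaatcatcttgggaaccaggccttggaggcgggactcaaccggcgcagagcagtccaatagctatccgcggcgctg
Mcm6: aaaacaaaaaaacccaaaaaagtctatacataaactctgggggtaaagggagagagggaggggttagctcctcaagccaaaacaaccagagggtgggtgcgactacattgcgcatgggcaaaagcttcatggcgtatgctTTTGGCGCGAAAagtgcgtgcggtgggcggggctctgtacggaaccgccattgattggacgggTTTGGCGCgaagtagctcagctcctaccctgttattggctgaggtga
Pola1: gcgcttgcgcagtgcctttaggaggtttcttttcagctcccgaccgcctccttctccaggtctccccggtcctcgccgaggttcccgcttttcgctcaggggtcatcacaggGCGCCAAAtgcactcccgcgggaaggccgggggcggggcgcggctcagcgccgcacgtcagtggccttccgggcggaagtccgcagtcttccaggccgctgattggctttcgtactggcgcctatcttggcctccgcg

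Mcm5 and Mcm6 hold a pair of sites that overlap on opposite strands, and Mcm6 has a further site nearer the start. The genes with a site were Orc1l, Orc3l, Cdc6, Mcm5, Mcm6, Mcm7, Gins3, Pola1, Pole4 and Rfc3, and their differences ran from -0.99 (Rfc3) to 0.72 (Mcm7) with a median of -0.12. The 28 measured genes with a window and no site had a median of -0.65, from -1.77 to 0.60. All 8 genes that were at least 2-fold lower had a window, and none of these held a site, where 10 of all 39 members with a window did. Members without a window are in neither median. They were Pole (1.47), Gins2 (0.92), Gmnn (0.32), Mcm4 (0.21), Gins4 (-0.41), Rfc2 (-0.55) and Prim2 (-0.60). Whether the sites bear on the differences was not tested. The search describes letters in 1 window per start and is no measure of binding.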

How the data were processed

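RNA of 1 whole-blastocyst and 1 ICM library was extracted (PicoPure), amplified (NuGEN Ovation RNA-Seq) and made into SOLiD fragment libraries, per the labels' protocols. The authors deposited 1 table with a read count and an RPKM value per gene and library, on genome build mm9 per the submitters' processing notes. Sources used here name no aligner, annotation or strand setting. From the deposited RPKM and counts, the totals behind RPKM came to 45011450 reads (whole blastocyst) and 37920430 reads (ICM), taking the recovered lengths as whole bases (100% within 0.02 bases).

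Differences used a pseudocount of 1 and a minimum RPKM of 1 in at least 1 library. Ratios have exact conditional (Clopper-Pearson) 95% intervals from the counts, and pairs of genes conditional odds-ratio intervals. Each pair is the highest against the lowest ratio of a complex, among genes with 50 or more reads in all, chosen by value. Last exons were taken from GENCODE M21 (GRCm38), for lengths and overlaps only. All members are named, with the up to 4 largest differences of each other list. Other genes named (Dbf4, Chek1, Recql4, Gata6, Nuf2, Ccnb2, Cenpf and the overlapping neighbours) were chosen after their values were seen. Members and lists were chosen with earlier results of these data known. Of the cumulus marker list 3 of 6 genes were measured, Cyp11a1 with 324 and 0 reads, Cyp19a1 with 0 and 91 and Star with 239 and 61, and the list's summed RPKM was 23.5 (whole blastocyst) and 2.76 (ICM). Fshr was at 0 reads in both. Of the blood list 1 of 5 was measured, Cd68 with 22 and 2 reads. The part of such cells in the differences was not tested. Computations were tested on simulated Poisson counts, with Python 3.11.15, numpy 2.4.6, scipy 1.17.1, pandas 2.3.3 and matplotlib 3.10.9. Alternatives in scaling, pseudocount, filter and gene choice are given at the end.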

Additional observations from a re-analysis of the deposited data

How the results depend on the processing

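Scaling between the libraries decided the direction of the median and the counts past 2-fold. The median difference of replication genes was -0.37 as deposited and turned positive after centring (0.29), as TPM (0.54), as CPM on listed gene reads (0.50) and after quantile normalization (0.44). In that order, lower replication genes numbered 1, 2, 2 and 1 in place of 8, and higher ones 7, 11, 10 and 10 of 45 in place of 1. Of all genes 16.9%, 22.0%, 21.1% and 18.7% were higher under these scalings and 20.5%, 29.5%, 29.3% and 21.1% lower, so the share of higher replication genes was near that of all genes. The other 6 lists held 24 accessory, 8 chaperone, 13 nucleotide supply, 18 G1/S, 9 polymerase and 22 mitosis genes that were measured. Among these, lower genes numbered 23, 25, 25 and 18 in place of 39, and higher ones 10, 14, 13 and 12 in place of 2. As deposited, 44% of all genes were lower and 8.96% higher. Over all genes the median moved from -0.84 to -0.18, -0.11, -0.14 and -0.08. Pola2 was past 2-fold lower, and Pole past 2-fold higher, under each of these 4 scalings. No replication gene past 2-fold changed sign.

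With a pseudocount of 0.1, 10 replication genes were lower and 1 higher, where 51.2% of all genes were lower and 11.5% higher. Filters (none, RPKM of 5 or more, 50 or more reads) left 7 or 8 lower and 1 higher. In that order, 28.2%, 48.7% and 41.8% of all genes were lower and 5.74%, 6.80% and 7.99% higher. For the other lists the filters left 0 higher genes (RPKM of 5 or more) and 1 (50 or more reads), since fewer genes were counted. Of 2 alternatives chosen after seeing the data, the first kept genes whose length fitted a last exon. It gave 4 lower of 24 replication genes and 25 lower in the other lists, whose fitting genes were not counted. The second kept members without overlapping exons and gave 5 lower of 35. Both count fewer genes. Of all genes whose length fitted a last exon 44.6% were lower. In the second setting 44.0% of all genes were lower, but only members had been screened for overlaps. No paired analysis was possible because each group has 1 library. Depth limits Pold1, Pold2, Pold4, Pole2, Cdc45l, Pola2 and Mcm9, which have few reads.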
